A study of Mus musculus with 8 samples.

Results

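The INK4 and CIP/KIP cyclin-dependent kinase inhibitors were followed in mouse cancers of the gastric squamous-columnar junction (SCJ), the border between the squamous forestomach and the glandular stomach. The genes were chosen by symbol: 7 of the 23361 genes in the RNA sequencing table, of which 4 are INK4 genes (Cdkn2a, Cdkn2b, Cdkn2c and Cdkn2d) and 3 are CIP/KIP genes (Cdkn1a, Cdkn1b and Cdkn1c). The 5 cancers came from mice with the Lgr5eGFP-Ires-CreERT2 allele, loxP-flanked copies of Trp53 and of Rb1 (loxP/loxP) and the Ai9 reporter, in which tamoxifen switches on a Cre knocked into the stem cell gene Lgr5, and they are labelled Trp53-/-Rb1-/-. They were cut out late after induction along the border of tdTomato, the red reporter of the Ai9 allele, so cells that Cre never reached can lie within them. The 3 controls are SCJ tissue of stomachs from age-matched mice labelled wild type. Levels are FPKM, fragments per kilobase of transcript scaled to the mapped fragments, rounded to whole numbers. Since FPKM is per length, levels of different genes can be set side by side, but at a few FPKM the rounding leaves only coarse steps.

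Cyclin-dependent kinases drive cells from growth into DNA synthesis when a cyclin binds them, in part by phosphorylating the retinoblastoma protein Rb1, which then releases the E2F transcription factors. INK4 proteins bind the cyclin D kinases Cdk4 and Cdk6 and keep them from their cyclin. CIP/KIP proteins bind cyclin and kinase together, and they block mainly the Cdk2 complexes. The Cdkn2a locus is unusual in making a pair of unrelated proteins from different first exons: p16Ink4a, a Cdk4 and Cdk6 inhibitor, and p19Arf, which protects p53 from Mdm2. Cdkn1a encodes p21, the classical target of p53, and Cdkn1b encodes p27, whose level is set largely by protein breakdown through the Skp2 ubiquitin ligase.

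The genes lie on 5 mouse chromosomes (mm10). Cdkn2a spans chr4:89274473-89294619 on the minus strand, and Cdkn2b follows at chr4:89306289-89311032 on the same strand, with 11669 bp between them. The coding transcripts of Cdkn2a in GENCODE release 21 share exon 2 (chr4:89276645-89276985) but begin at different first exons, chr4:89281986-89282192 for Cdkn2a-201 and chr4:89294334-89294653 for Cdkn2a-202. Cdkn2c lies at chr4:109660876-109665372 (minus strand), Cdkn2d at chr9:21288464-21291209 (minus), Cdkn1a at chr17:29090986-29100722 (plus), Cdkn1b at chr6:134920401-134925525 (plus) and Cdkn1c at chr7:143458339-143461050 (minus). GENCODE places the antisense gene Gm44732 over Cdkn1c and the unclassified gene AC167363.2 on the strand opposite Cdkn1a. The sources used here do not state whether fragments were counted by strand, so reads of these overlaps cannot be told apart.

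The sequences just before a transcription start are shown for the divided Cdkn2a locus, for its neighbour Cdkn2b and for the p53 target Cdkn1a, because Cdkn2a rose and the other two fell. Each run is taken from the 250 bases upstream of a RefSeq start (GRCm38.p6), without the bases that lie in a GENCODE exon of the gene, and is written 5′ to 3′ on the gene's own strand. Capitals mark E2F letters (TTTCCCGC, TTTCGCGC, TTTGCCGC or TTTGGCGC on either strand), the GC box GGGCGG on either strand or a p53 response element. The far Cdkn2a start (chr4:89294654-89294869, minus) precedes the first exon of p19Arf, the near one (chr4:89282193-89282442, minus) precedes that of p16Ink4a, and the others are Cdkn2b (chr4:89311040-89311282, minus) and the upstream one of the Cdkn1a starts (chr17:29090729-29090975, plus).
Cdkn2a far start: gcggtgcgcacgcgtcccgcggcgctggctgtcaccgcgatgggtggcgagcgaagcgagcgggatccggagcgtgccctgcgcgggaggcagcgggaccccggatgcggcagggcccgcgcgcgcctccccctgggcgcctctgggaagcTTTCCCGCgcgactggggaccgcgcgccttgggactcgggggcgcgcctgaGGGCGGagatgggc
Cdkn2a near start: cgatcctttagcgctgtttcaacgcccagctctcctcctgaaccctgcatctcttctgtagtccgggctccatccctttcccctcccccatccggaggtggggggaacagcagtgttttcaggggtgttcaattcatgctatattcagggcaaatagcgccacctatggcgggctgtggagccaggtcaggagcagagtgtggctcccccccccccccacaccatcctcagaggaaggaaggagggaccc
Cdkn2b: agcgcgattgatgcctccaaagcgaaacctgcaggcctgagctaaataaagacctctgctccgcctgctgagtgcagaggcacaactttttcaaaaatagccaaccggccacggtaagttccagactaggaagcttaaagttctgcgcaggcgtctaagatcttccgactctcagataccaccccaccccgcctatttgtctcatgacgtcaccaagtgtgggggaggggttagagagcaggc
Cdkn1a: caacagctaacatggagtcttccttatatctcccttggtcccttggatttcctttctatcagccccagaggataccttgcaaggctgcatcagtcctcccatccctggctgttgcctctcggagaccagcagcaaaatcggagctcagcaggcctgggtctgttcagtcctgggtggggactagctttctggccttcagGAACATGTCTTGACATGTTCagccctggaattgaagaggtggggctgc
RefSeq windows of 300 bases (250 before and 50 after the start) matched 6 of the 7 genes with 9 starts, and Cdkn1c had none. Of all 32851 windows, 2.26% held E2F letters, and among the inhibitor genes the far Cdkn2a start was the one that did, 99 bases before it. The p53 response element, with at most 1 letter off the consensus, was found in 22 of all windows (0.067%), among them that of the Cdkn1a start printed above. The window of the downstream Cdkn1a start (chr17:29093769, plus), not printed here, held no p53 match and 2 GC boxes. GC boxes stood in 35.7% of all windows and in 7 of the 9 windows of the inhibitor genes. They overlap neither of the other motifs in the runs shown. A match of letters is a description of the sequence and not evidence of binding.

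The cancers held the inhibitor genes in other proportions than the control SCJ. Cdkn2a, Cdkn2c, Cdkn2d and Cdkn1b rose and Cdkn2b and Cdkn1a fell, while Cdkn1c did not pass the test (limma, adjusted p under 0.05). These 6 calls among 7 genes stand beside a background in which 34.5% of all 14357 genes tested were called, 16.2% as higher and 18.3% as lower. The calls of Cdkn2b and Cdkn1a were lost under other scalings and without some samples, as given below. All 7 passed the filter on low values (FPKM 1 or more in 3 or more samples), which Cdkn2a met through the cancers. For 6 of the 7 genes cancers and controls did not overlap, as was the case for 34.1% of all genes tested (14.4% with every cancer above every control and 19.8% with every cancer below). The samples are whole tissue, so fewer cells of a type and less RNA per cell cannot be told apart.

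**Figure D1:**
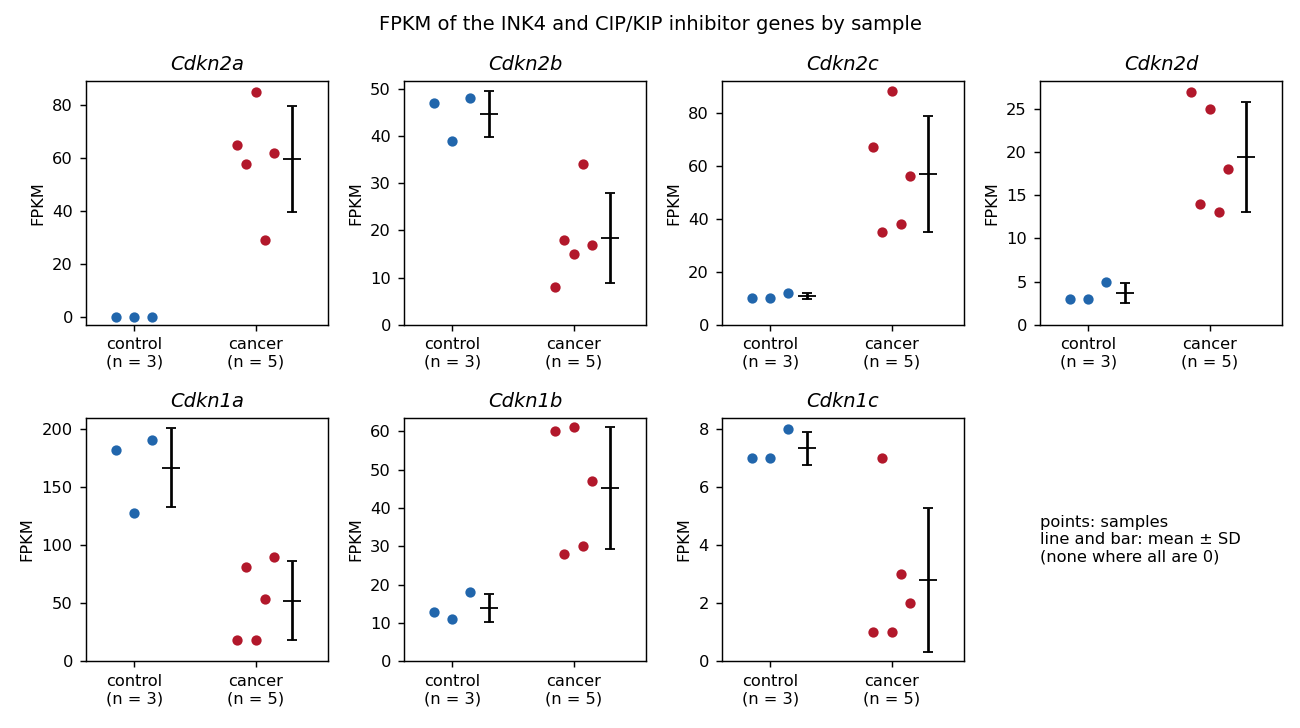
FPKM (vertical axes, linear, each with its own range) of the 7 inhibitor genes in 3 controls (blue) and 5 cancers (red); points are samples, and the black line with its bar is the mean ± SD. Every cancer lies above every control for Cdkn2a, Cdkn2c, Cdkn2d and Cdkn1b and below every control for Cdkn2b and Cdkn1a, whereas cancer 2 equals the lower controls for Cdkn1c at 7 FPKM.

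Cdkn2a changed most. Its FPKM was 65, 58, 85, 29 and 62 in cancers 1 to 5, a mean of 59.8 ± 20.1 (SD, n = 5), and it was listed at 0 in each of the 3 controls. Every cancer lay far above the controls, with cancer 4 the lowest of the cancers. The gene stood at the 92.6th percentile of the tested genes in the median cancer. The difference had an adjusted p of 0.00017 (limma) and a two-sided exact permutation p of 0.018, the smallest that 5 against 3 samples allow. Cdkn2a entered the test only through the cancers, and these p-values rest on the 0 listed in each control. No fold is given against a group listed at 0. Pgc, the abundant pepsinogen gene of chief cells, was listed at 28832 FPKM in control 1 and at 0 in controls 2 and 3, so a 0 in this table can be a failed estimate. Fragments of the shared exons belong to both products, and the table has 1 value per gene, so the part of p16Ink4a and of p19Arf in this level was not measured.

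Cdkn2b, the nearest gene to Cdkn2a in this family and the source of p15Ink4b, an inhibitor known as a target of TGF-beta signalling, went the other way. It had FPKM of 8, 18, 15, 34 and 17 in cancers 1 to 5 and 47, 39 and 48 in controls 1 to 3. All cancers were below all controls, but cancer 4 came close to the lowest control. The means were 18.4 ± 9.56 (SD, n = 5) and 44.7 ± 4.93 (SD, n = 3), 2.43-fold lower in the cancers. On the log2(FPKM + 1) scale the change was -1.36 (SE 0.38, adjusted p = 0.029 from limma; exact permutation p = 0.036). The call was lost when FPKM was rescaled to the same sum in each sample (TPM; -0.43, adjusted p = 0.25) or quantile normalized (-1.04, adjusted p = 0.070), and also without cancer 3 (adjusted p = 0.068), cancer 5 (0.054) or any 1 of the 3 controls (0.071 to 0.096). Under TPM the median of all genes moved to 0.81, and Cdkn2b lay 1.24 below it.

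Cdkn2c and Cdkn2d encode p18Ink4c and p19Ink4d, the INK4 proteins best known from dividing and differentiating precursor cells. Cancers 1 to 5 had Cdkn2c at 67, 35, 88, 38 and 56 FPKM, whereas controls 1 to 3 had 10, 10 and 12. Cdkn2d stood at 27, 14, 25, 13 and 18 FPKM in the same cancers, compared with 3, 3 and 5 in the controls. The lowest cancer was well above the highest control for both genes, and cancers 1 and 3 were the highest and cancers 2 and 4 the lowest for each. Mean Cdkn2c was 56.8 ± 21.8 (SD, n = 5) against 10.7 ± 1.15 (SD, n = 3), or 5.33-fold higher, with a log2 change of 2.23 (SE 0.31, adjusted p = 0.0027 from limma). Mean Cdkn2d was 19.4 ± 6.35 against 3.67 ± 1.15 (SD, n = 5 and 3), or 5.29-fold higher, with a log2 change of 2.10 (SE 0.28, adjusted p = 0.0027 from limma). Exact permutation gave p = 0.018 for both. Their ratio hardly moved: Cdkn2c over Cdkn2d was 2.91 ± 0.44 (SD, n = 5) in the cancers and 3.02 ± 0.54 (SD, n = 3) in the controls, and it lay between 2.40 and 3.52 in all 8 samples.

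Among the CIP/KIP genes, Cdkn1a (p21) was the most abundant inhibitor of the control SCJ, at 182, 128 and 190 FPKM. The cancers had 18, 81, 18, 54 and 90, all below the controls. They split widely, with cancers 1 and 3 at a level 5 times lower than cancer 5. The mean was 52.2 ± 33.9 (SD, n = 5) against 166.7 ± 33.7 (SD, n = 3), 3.19-fold lower. Its log2 change of -1.94 (SE 0.60, adjusted p = 0.041 from limma; exact permutation p = 0.036) was the least firm of the calls. It was lost under TPM (-0.99, adjusted p = 0.13) and quantile normalization (-1.52, adjusted p = 0.072), without cancer 1 (0.067), cancer 3 (0.076) or cancer 4 (0.057), and without any 1 control (0.084 to 0.12).

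Cdkn1b (p27) rose where Cdkn1a fell. Its FPKM was 60, 28, 61, 30 and 47 in cancers 1 to 5 and 13, 11 and 18 in the controls. Every cancer was above every control, and cancers 1 and 3 were again the highest. The mean was 45.2 ± 15.8 (SD, n = 5) against 14.0 ± 3.61 (SD, n = 3), 3.23-fold higher (log2 change 1.58, SE 0.32, adjusted p = 0.0094 from limma; exact permutation p = 0.018). The calls of Cdkn1b, Cdkn2a, Cdkn2c and Cdkn2d held under all 16 other settings of scaling, filtering, model and omitted sample.

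Cdkn1c (p57), an imprinted gene and the CIP/KIP member tied to embryonic growth, was low throughout. Cancers 1 to 5 stood at 1, 7, 1, 3 and 2 FPKM and controls 1 to 3 at 7, 7 and 8. Only cancer 2 reached the controls, while the other 4 cancers were below them. The means were 2.80 ± 2.49 (SD, n = 5) and 7.33 ± 0.58 (SD, n = 3). The log2 difference of -1.34 (SE 0.45) had an adjusted p of 0.052 from limma and an exact permutation p of 0.089, and it passed the threshold without cancer 2 (-1.66, adjusted p = 0.0066) and with sample weights (-1.59, adjusted p = 0.0030).

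Added together the 7 genes gave about the same FPKM in both groups, 254.6 ± 38.7 (SD, n = 5) in the cancers and 247 ± 43.5 (SD, n = 3) in the controls, but the makeup differed. INK4 genes took 51.9% to 72.7% of this sum in the cancers and 22.9% to 26.3% in the controls. The equality of the sums depends on the scaling, since after TPM scaling the sum was 542 ± 143 (SD, n = 5) against 260.1 ± 32.3 TPM (SD, n = 3). The shares do not depend on it. Within the INK4 family the control SCJ was dominated by Cdkn2b at 73.8% to 78.3%. In the cancers Cdkn2b held 4.79% to 29.8%, and Cdkn2a (25.4% to 46.4%) and Cdkn2c (28.0% to 41.3%) took the larger shares, except that in cancer 4 Cdkn2b was above Cdkn2a.

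**Figure D2:**
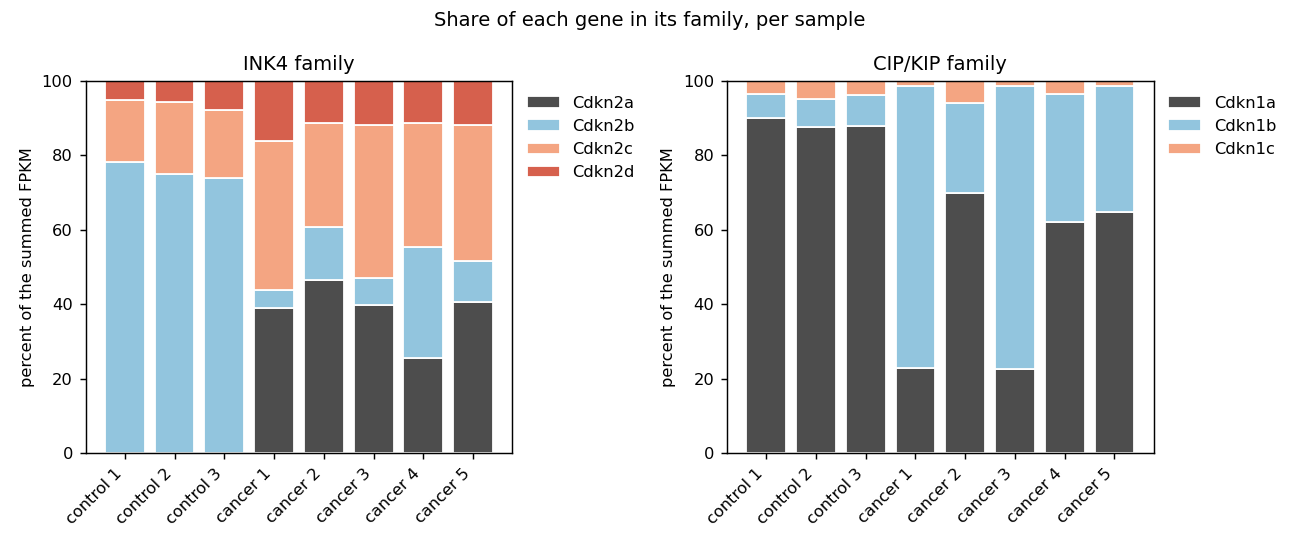
Percent of the summed FPKM (vertical axis, 0 to 100) held by each gene of the INK4 family (left) and of the CIP/KIP family (right), 1 stacked bar per sample. Cdkn2b fills 73.8% to 78.3% of the INK4 bar in the controls, and Cdkn1b fills 76% of the CIP/KIP bar in cancers 1 and 3 but 24.1% to 34.5% in cancers 2, 4 and 5.

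The order of the genes was the same in all 3 controls: Cdkn1a, Cdkn2b, Cdkn1b, Cdkn2c, Cdkn1c, Cdkn2d and Cdkn2a from high to low. Neighbours in the middle of that order, Cdkn1b (11 to 18 FPKM) and Cdkn2c (10 to 12), overlapped between samples. Cancers 1 and 3 shared another order, led by Cdkn2c, Cdkn2a and Cdkn1b and with Cdkn1a below Cdkn2d. Cdkn1a still led in cancers 2, 4 and 5, followed by Cdkn2a in cancers 2 and 5 and by Cdkn2c in cancer 4. Over the 5 cancers the levels of Cdkn2a, Cdkn2c and Cdkn1a overlapped widely, so their order among the cancers as a group is not settled. The switch within the CIP/KIP family shows in the ratio of Cdkn1b to Cdkn1a, which was 3.33 and 3.39 in cancers 1 and 3, 0.35 to 0.56 in cancers 2, 4 and 5, and 0.071 to 0.095 in the controls.

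The cancers also differed in how much RNA of normal stomach they held. Summed FPKM of 4 pit cell markers (Muc5ac, Tff1, Gkn1 and Gkn2) was 689, 65598, 4783, 43934 and 14693 in cancers 1 to 5 and 143964 to 211954 in the controls. For all 4 markers the cancers lay below the controls without overlap, and Gkn1 passed the test. The 3 parietal cell markers (Atp4a, Atp4b and Gif) summed to 0, 1493, 208, 2580 and 286 in the cancers and 6552 to 12325 in the controls, none passed the test, and all 3 were listed at 0 in cancer 1. Cancers 2 and 4, with the most pit cell RNA, were also those with the most Cdkn2b and Cdkn1c and the least Cdkn2a, Cdkn2c, Cdkn2d and Cdkn1b among the cancers. Cancers 1 and 3, with the least pit cell RNA, had the least Cdkn2b, Cdkn1a and Cdkn1c. The part of this tissue content in the levels of the inhibitors was not tested.

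**Figure D3:**
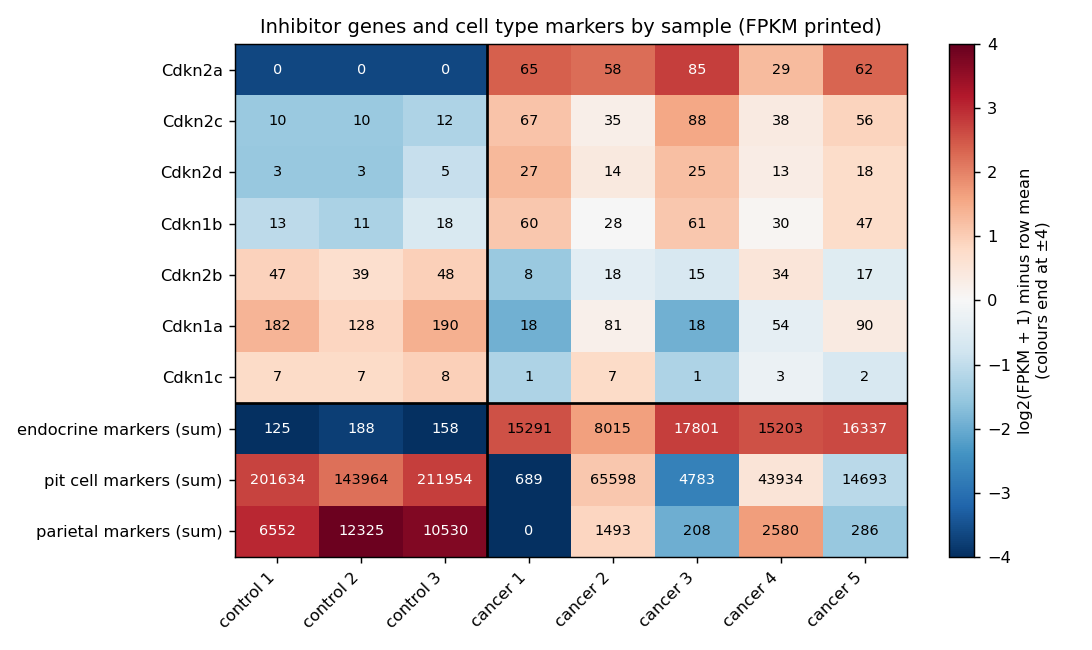
Log2(FPKM + 1) of the 7 inhibitor genes, and of the summed endocrine, pit cell and parietal cell markers, minus the mean of each row, in colour from blue (-4) to red (4), with the FPKM printed in each cell; columns are the 3 controls and 5 cancers. Cdkn2b, Cdkn1a and Cdkn1c are lowest in cancers 1 and 3, and the pit cell row runs from 689 in cancer 1 to 65598 in cancer 2.

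Other features of the samples were measured beside these values. Of all genes tested 16.2% were called as higher and 18.3% as lower, the background for the marker counts here. Endocrine markers (Chga, Chgb, Syp, Scg2, Scg3 and Insm1) rose as a group, all 6 called, with sums of 8015 to 17801 FPKM in the cancers and 125 to 188 in the controls, and the 5 squamous markers summed to 0 to 1588 in the cancers and 1533 to 2572 in the controls, which thus held RNA of both epithelia of the junction. Lymphocyte markers summed to 125 in cancer 1 and to 10 or less elsewhere, and hepatocyte markers to 445 in cancer 5 and to 58 or less elsewhere. Fibroblast markers summed to 214 to 310 in cancers 1 to 4, 61 in cancer 5 and 68 to 127 in the controls, and none of the 5 passed the test. Smooth muscle markers summed to 1313 in cancer 2 and to 41 to 434 in the other samples, and the chief cell markers Pgc and Lipf to 28833 in control 1, 0 in controls 2 and 3 and 9 to 6763 in the cancers. Of 4 endothelial markers Pecam1 (log2 change 1.47) and Cdh5 (1.56) rose, of 3 macrophage markers Csf1r (1.21) rose, and of 4 epithelial markers Epcam (1.17) rose and Cdh1 (-1.78) and Krt8 (-2.02) fell. The part of these cells in the results was not tested. The number of inhibitor genes called stayed between 4 and 7 whichever sample was left out. The whole-table sum of FPKM was 403569 to 573858 in the cancers and 887141 to 992550 in the controls, where the 10 most abundant genes held 39.3% to 44.3% of it. Read numbers are not given in the table, so depth is unknown. Of the deleted genes, Rb1 was at 4, 4, 5, 6 and 4 FPKM in cancers 1 to 5 but at 9, 9 and 10 in controls 1 to 3 (log2 change -0.90, adjusted p = 0.0059 from limma; -0.05 and 0.84 under TPM). Trp53 had 12, 22, 12, 30 and 12 against 16, 17 and 19 (-0.08, adjusted p = 0.87 from limma), so its gene-level value does not separate the samples labelled Trp53-/- from the wild type, and the deleted exons were not measured apart.

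**Figure D4:**
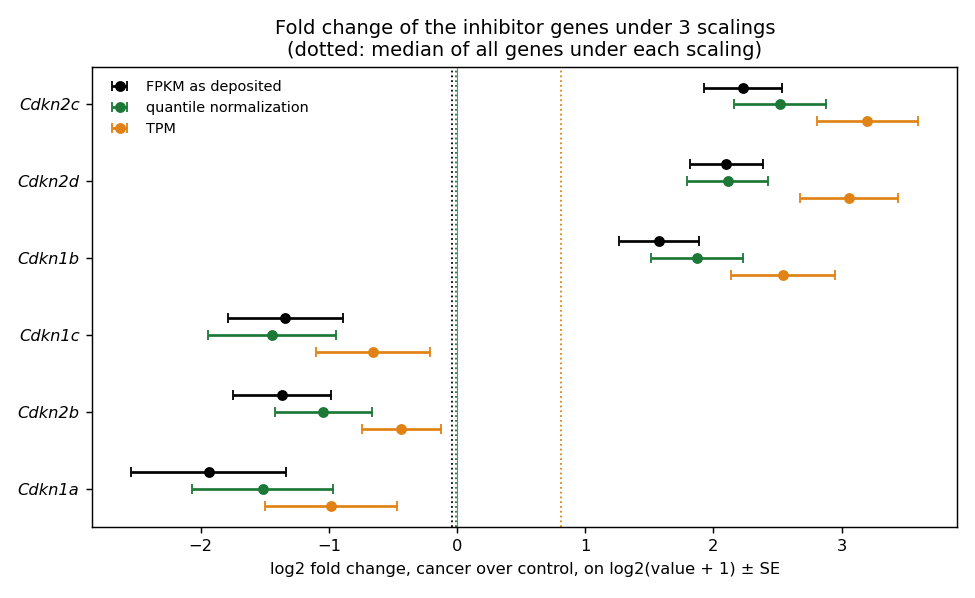
Log2 fold change of cancers (n = 5) over controls (n = 3) on log2(value + 1), with its SE, for 6 inhibitor genes as deposited (black), quantile normalized (green) and rescaled to the same sum in each sample (TPM, orange); dotted lines mark the median of all genes under each scaling. Cdkn2c, Cdkn2d and Cdkn1b stay to the right of their line and Cdkn2b, Cdkn1a and Cdkn1c to the left under all 3, and Cdkn2a is left out because its controls are listed at 0.

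The kinases and cyclins that the inhibitors bind were compared next. Of 13 kinases, cyclins and the p21 partner Pcna, 4 rose and 1 fell, a share near the 34.5% called among all genes, with a median log2 change of 0.87 against -0.038 for all genes tested. Under TPM, which called 53.7% of all genes and 93.1% of these as higher, 10 rose and 1 fell (median 1.78, with that of all genes at 0.81). Quantile normalization called 26.4% of all genes, and there 5 of the 13 rose and 2 fell. Cdk4, the kinase that INK4 proteins bind, was at 94, 109, 90, 101 and 77 FPKM in cancers 1 to 5, compared with 69, 69 and 76 in controls 1 to 3. It was higher in every cancer but did not pass the test on deposited values (log2 difference 0.39, adjusted p = 0.065 from limma), and it did under quantile normalization (0.86, adjusted p = 0.0083). Cdk6, its relative, was near the floor of the table, at 0 to 1 FPKM in the cancers and 1 to 2 in the controls, and was called lower under quantile normalization (adjusted p = 0.039 from limma). Cdk2, the main kinase that p21 and p27 restrain, was 11 to 19 FPKM in the cancers and 13 to 17 in the controls (log2 difference -0.13, adjusted p = 0.62 from limma).

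Set against Cdk4 in the same sample, the inhibitors showed the same exchange. Cdkn2c had 0.32 to 0.98 FPKM for each FPKM of Cdk4 in the cancers and 0.14 to 0.16 in the controls. Cdkn2a reached 0.29 to 0.94 of Cdk4 in the cancers. Cdkn1a stood at 1.86 to 2.64 times Cdk4 in the controls and at 0.19 to 1.17 in the cancers. These ratios are free of the scaling between libraries, and for none of the 7 genes did they overlap between the groups, as was the case for 47% of all genes tested. Cdk4 was itself higher in every cancer, which lowers each ratio there.

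**Figure D5:**
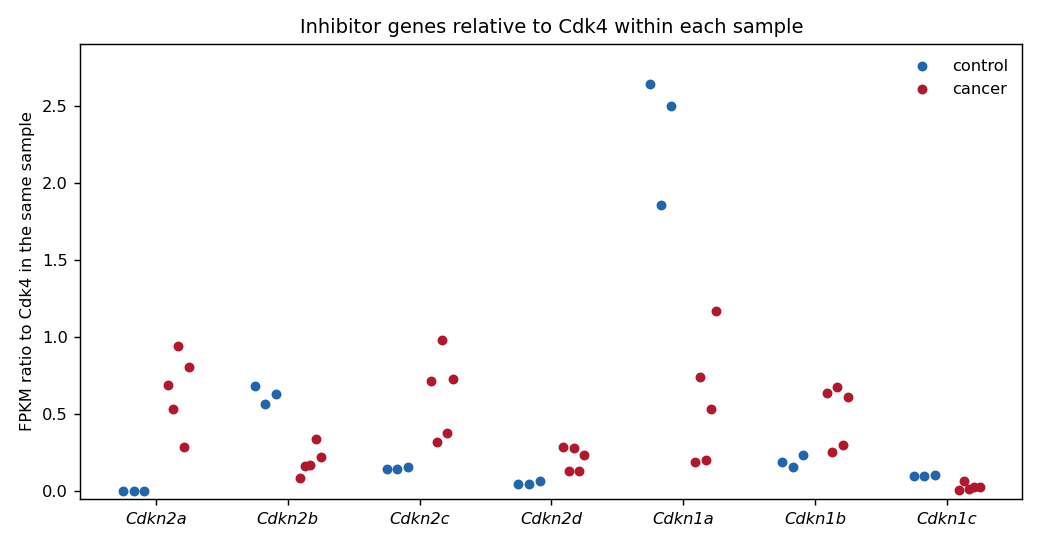
FPKM of each inhibitor gene divided by that of Cdk4 in the same sample (vertical axis, linear), for 3 controls (blue) and 5 cancers (red); each point is a sample. Cdkn1a lies at 1.86 to 2.64 in the controls and 0.19 to 1.17 in the cancers, and Cdkn2c at 0.14 to 0.16 and 0.32 to 0.98.

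Among the cyclins, Ccnd2, a D-type partner of Cdk4 and Cdk6, fell: 6, 12, 4, 7 and 11 FPKM in the cancers against 52, 38 and 27 (log2 change -2.19, adjusted p = 0.0045 from limma). Ccnd1 and Ccnd3 did not pass the test, with mean FPKM of 14.8 in cancers against 24.3 in controls for Ccnd1 and of 22.2 against 26.3 for Ccnd3. The E-type cyclins that pair with Cdk2 missed the threshold, Ccne1 at 6.80 against 2.33 FPKM (adjusted p = 0.052) and Ccne2 at 4 against 0.67 (0.064), by limma. Under TPM, Ccne1 (2.004), Ccne2 (2.26), Ccnd3 (0.67) and Cdk2 (0.80) were called higher, the last pair below the median of all genes there. The mitotic kinase Cdk1 rose to 21.2 ± 7.19 from 7 ± 2.65 FPKM (SD, n = 5 and 3; log2 change 1.45, adjusted p = 0.014 from limma) and its cyclin Ccnb1 by 1.43 (adjusted p = 0.027). Ccna2 had a log2 difference of 0.87 (adjusted p = 0.073 from limma) and was called higher under TPM (1.82) and quantile normalization (1.10). Ccna1 passed the test at 1 or 2 FPKM in the cancers and listed at 0 in the controls, so it met the filter on low values only through the cancers. It was not called under quantile normalization (adjusted p = 0.051 from limma). Pcna, the DNA polymerase clamp that p21 also binds, rose by 0.87 (adjusted p = 0.018 from limma).

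Of 13 genes for the breakdown of p27 and p21, 3 rose and none fell, where 16.2% of all genes rose and 18.3% fell (median log2 change -0.069). Under TPM 10 rose, against 53.7% of all genes called there. The 3 called on deposited values were Cks1b, the adaptor that brings p27 to Skp2, at 40, 38, 47, 23 and 45 FPKM against 18, 12 and 14 (log2 change 1.32, adjusted p = 0.0079 from limma), Dtl, which guides p21 to the Cul4 ligase (1.19, adjusted p = 0.017), and Skp2 itself at only 2 to 5 against 1 to 2 FPKM (0.90, adjusted p = 0.031). Under quantile normalization Skp2 (adjusted p = 0.17) and Dtl (0.058) were not called. The other ligase parts Skp1a, Cul1, Rbx1, Cul4a, Cul4b and Ddb1 did not pass, with log2 differences between -0.52 and 0.30, nor did Fbxw7, Rnf123, Usp19 and Cops5, between -0.32 and -0.02. The RNA level of Cdkn1b rose together with that of Cks1b and Skp2, and protein was not measured.

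Regulators known from the INK4 locus and the other inhibitor genes moved in part. In the lists described here the called genes had the same sign under TPM and quantile normalization, apart from Tfdp2 and Smad7 under TPM, where all genes shift upwards. Of 18 genes, most of them for the Polycomb complexes that silence Cdkn2a and Cdkn2b and including the opposing demethylase Kdm6b (not called), 4 rose and none fell (median log2 change 0.079): Cbx7 (1.51), Rbbp7 (1.23), Pcgf2 (0.72) and Rbbp4 (0.68). Among all genes tested 16.2% rose and 18.3% fell. Under TPM 15 of the 18 rose (median 1.02), beside 53.7% of all genes called there (median 0.81). Ezh2, the methyltransferase of these complexes, and Bmi1 were 8 to 11 and 8 to 21 FPKM in the cancers and 7 to 9 and 13 to 18 in the controls, and neither passed. Of 13 pocket protein, E2F and DP genes, 3 rose and 2 fell, a share near the 34.5% of all genes (median 0.16), with E2f1 at 15, 9, 13, 6 and 13 FPKM against 1, 2 and 2 (log2 change 2.16, adjusted p = 0.0028 from limma), E2f7 and Tfdp1 also higher, and Rb1 and Tfdp2 lower. Under TPM, with 53.7% of all genes called, 8 rose and none fell (median 1.05) and Tfdp2 changed sign (0.25), and under quantile normalization E2f7 (adjusted p = 0.094 from limma) and Tfdp2 (0.063) were not called. Of 20 known E2F target genes of DNA replication and mitosis, 12 rose and none fell, where 16.2% of all genes rose (median 0.93), led by Mcm2 (1.57), Mcm6 (1.35), Cdc20 (1.33) and Mcm4 (1.26). Under TPM 18 rose, with 53.7% of all genes called, and under quantile normalization 11 rose, with 26.4% of all genes called.

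Cdkn1a was compared with other known p53 targets. Of 17 genes of the p53 axis that were tested, 3 rose and 2 fell (median log2 change 0.032), a share below the 34.5% of all genes, and Eda2r was listed at 0 throughout. Perp fell by 2.11 and Ccng1 by 1.07, whereas Trp53inp1 (2.13), Plk2 (1.33) and Bbc3 (0.64) rose. Under TPM, where 53.7% of all genes were called, 9 rose and none fell, with Ccng1 at -0.13 (adjusted p = 0.69 from limma) and Perp at -1.15 (0.075), and under quantile normalization Ccng1 (0.054) and Bbc3 (0.45) were not called. In the set of TGF-beta, FOXO, MYC and other regulators 27 of 29 entries were in the table, and 1 rose and 4 fell, a share below the 34.5% of all genes (median -0.27). Under TPM 13 rose and 1 fell (median 0.59), beside 53.7% of all genes called there (median 0.81). Klf4, an activator of Cdkn1a in epithelia, was the largest of the falls, at 15, 93, 28, 46 and 57 FPKM against 318, 209 and 252 (log2 change -2.64, adjusted p = 0.0097 from limma), and Klf6, Foxo3 and Smad7 fell by 1.24, 1.19 and 0.58. Smad7 turned to 0.31 under TPM, where Klf6 (adjusted p = 0.48 from limma) and Foxo3 (0.49) were not called either, and Klf6 (0.088) and Smad7 (0.11) also lost their calls under quantile normalization. Tgfb1, the ligand that induces Cdkn2b in epithelial cells, rose by 2.42, while Cdkn2b itself fell.

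Senescence is often read from Cdkn2a together with secreted factors and markers such as the lamin Lmnb1, the lysosomal enzyme Glb1 and the chromatin proteins Hmga1 and Hmga2. Of 14 genes of both kinds, 4 rose and none fell (median log2 change 1.47): Cxcl1 (3.28), Mmp3 (2.94), Il1b (2.32) and Igfbp3 (2.02). Among all genes tested 16.2% rose and 18.3% fell, with a median of -0.038. Cxcl1, Mmp3 and Il1b, at 0 or 1 FPKM in every control, met the filter on low values through the cancers. Under TPM 11 of the 14 rose, beside 53.7% of all genes called. Under quantile normalization Cxcl1 (adjusted p = 0.054 from limma) and Il1b (0.059) were not called, while Glb1 (1.14) and Igfbp7 (2.38) were called higher and Hmga2 (-1.15) lower. Cancer 5 held the highest Cxcl1 (112 FPKM, others 4 to 8), Il1b (36, others 3 to 6) and Mmp3 (30, others 1 to 8). It held the lowest Igfbp3 (22, others 34 to 90) and had Cdkn2a at 62 FPKM, with the other cancers at 29 to 85. Whether these genes go with Cdkn2a was not tested. Lmnb1, which falls in senescent cells, was 12 to 23 FPKM in the cancers and 11 to 14 in the controls and did not pass the test.

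Genes next to the inhibitors were compared as well. Of 19 tested neighbours, 3 rose and 2 fell (median log2 change -0.16), again a share below the 34.5% of all genes. Under TPM 8 rose and 1 fell (median 0.63), beside 53.7% of all genes called there (median 0.81). Mtap, on the far side of the Cdkn2a and Cdkn2b pair, had 8, 13, 10, 15 and 10 FPKM against 21, 19 and 13 (-0.62, adjusted p = 0.072 from limma), and Dmrta1 was listed at 0. Beside Cdkn1b, Gpr19 rose from 0 to 1 FPKM in the controls to 6 to 14 in the cancers (log2 change 2.56, adjusted p = 0.0026 from limma) and Apold1 by 1.35, whereas Ddx47 had a log2 difference of 0.11. Apold1 was at 1 or 2 FPKM in the cancers and listed at 0 in the controls. Both Gpr19 and Apold1 met the filter on low values through the cancers. Near Cdkn2d, Slc44a2 fell by 1.58 and Ap1m2 by 1.22, opposite to Cdkn2d, though Ap1m2 was not called under TPM (adjusted p = 0.34 from limma) or quantile normalization (0.066). In the imprinted region of Cdkn1c, Cd81 rose by 1.12, and Slc22a18 (-2.49, adjusted p = 0.070), Phlda2 (-1.22, 0.16), Kcnq1 (-2.10, 0.15), H19 (-1.01, 0.079), Igf2 (-0.16, 0.80) and Nap1l4 (0.22, 0.17) did not pass by limma, but Nap1l4 was called higher under TPM (1.18) and quantile normalization (0.64), and H19 was called lower under quantile normalization (-1.30). Among 7 other genes named for kinase inhibition or binding, Cdk2ap1 rose by 0.80 (adjusted p = 0.0040 from limma), and Cdkn3, Cdkn2aip, Cdkn2aipnl, Cdk2ap2, Cdk5rap1 and Cables1 did not pass.

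The profiles over the 8 samples were compared by the root mean square difference of log2(FPKM + 1) after centring each gene, between the 7 inhibitors and against 9138 genes with a mean FPKM of at least 5, to which Cdkn1c itself does not belong. The points share the same 8 libraries, and no test is given. Within the family Cdkn2c and Cdkn2d were the closest pair (0.19), then Cdkn2d and Cdkn1b (0.28) and Cdkn2c and Cdkn1b (0.35), and Cdkn2b was closest to Cdkn1c (0.54). Cdkn2a and Cdkn1a lay farthest apart (3.91). The genes most like Cdkn2a were Sez6l2 (0.39), Hap1 (0.41) and Neurod1 (0.41), which stood at 0 or 1 FPKM in every control. For Cdkn2c they were Ubqln2 (0.12), Tpst2 (0.14) and BC018242 (0.14), and for Cdkn2d BC018242 (0.097), Grik5 (0.12) and Trp53i13 (0.13). Cdkn1b was most like Atg16l2 (0.13), Prkar1a (0.17) and Hcn2 (0.17). Among the genes that were lower or tended to be, Cdkn2b was nearest to Gpr160 (0.16), Btbd3 (0.17) and 5730508B09Rik (0.18), Cdkn1a to Ugt1a6a (0.22), Coro2a (0.25) and AI661453 (0.25), and Cdkn1c to Gpx1 (0.14), Adap1 (0.14) and Ifrd2 (0.16).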

How the data were processed

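RNA of 5 cancers and 3 control SCJ tissues was sequenced; the labels describe polyA selection and a NEBNext directional kit, whereas the study's methods name a TruSeq kit. Per the submitters' processing notes and the study's methods, the authors trimmed reads with cutadapt 1.8, aligned them with TopHat2 2.0.13, quantified UCSC mm10 genes with cuffquant and made FPKM with Cuffnorm 2.2.1; its normalization option and any strand setting are not given in the sources used here. The deposited values are FPKM rounded to whole numbers (100% whole) and were treated as a score, not as counts. Depth is unknown, so no counting interval is given.

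The 14357 genes at FPKM 1 or more in 3 or more samples entered the test on log2(FPKM + 1), a scale that understates changes of low genes, with limma 3.58.1 (eBayes with trend, R 4.3.3), Benjamini-Hochberg adjustment and a threshold of 0.05; the fit was tested on simulated data. Genes at FPKM 1 or more in fewer than 3 controls, such as Cdkn2a, Ccna1, E2f7, Apold1 and Mmp3, met this filter through the cancers. Permutation tests were two-sided and exact over the 56 splits. Nothing in the labels says that samples of a group came from separate litters or days, so p-values measure only the spread between these samples. Named are all 7 inhibitors, the partner and turnover lists, Trp53, Rb1 and up to 4 called genes of each other list with the largest change; Smad7, Bbc3, Tfdp2, Cd81, Ezh2, Bmi1, Lmnb1, Mtap, Dmrta1, Ddx47, Eda2r, Kdm6b, Pgc, the neighbours of Cdkn1c and the other kinase-related genes that did not pass were named after their values were seen. Members and lists were chosen with earlier results of these data known, and some list entries are not reported here. Alternatives were TPM, quantile normalization, a pseudocount of 0.1, no filter, a mean FPKM of at least 5, eBayes without trend, sample weights, a replicate block and omitted samples.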

Additional observations from a re-analysis of the deposited data

Results flagged for a closer look

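Ccna1, the cyclin A gene best known from the germ line, was the 1 measure among 34 in which a cancer stood apart from the other 4. Its FPKM was 2 in cancer 3 and 1 in each of the other cancers, so the gap between cancer 3 and its nearest neighbour was 1 time the whole range, above the limit of 0.71 for 5 samples. Chance alone flags about 1 in 20 groups, or 1.7 of 34, and a step from 1 to 2 FPKM is the smallest that whole numbers allow. None of the 7 inhibitor genes had such a sample among the cancers.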

How the results depend on the processing

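Of the 7 inhibitor genes 6 were called, and between 4 and 7 under all other settings; none changed direction. Cdkn2b was called under 8 and Cdkn1a under 7 of the 16 other settings. A further run without cancers 2 and 4, the cancers with the most pit cell RNA, was chosen after the levels were seen and is not counted among these; it called all 7 inhibitors, with Cdkn1c at -1.86 (adjusted p = 0.0025 from limma), and 6692 genes in all. Among all genes 4948 were called, of which 47.0% were higher. TPM called 7704 (93.1% higher, with the median of all genes at 0.81), sample weights 8148, the mean FPKM of at least 5 called 3519 (35.4% higher), and leaving out 1 sample gave 2490 to 5252, lowest without control 1 (2490), control 2 (2643) and control 3 (2815). In the fixed lists together 49 of 161 genes were called, 110 under TPM, 100 with sample weights and 26 to 56 with 1 sample left out, lowest without control 2 (26) and control 3 (27). The labels number the replicates, but cancers and controls of the same number did not deviate together (correlations -0.021, -0.194 and -0.104), and cancers 4 and 5 have no control of their number. With the replicate block 1534 genes were called, 1327 of them also without it, 24 in the lists and 4 of the inhibitors, with Cdkn2b at -1.70 (adjusted p = 0.068) and Cdkn1a at -2.42 (0.12) not called by limma. The causes were not tested. Whole-number FPKM without read numbers limits what can be said of genes at a few FPKM, such as Cdkn1c, Cdk6 and Skp2.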
